A study of Mus musculus with 4 samples.

Results

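The genes described here are the cytochrome P450 genes on a mouse expression array. They were taken as every gene name of the form Cyp, number, letter, number, with 7 names set aside (Cyp4a10, Cyp4a14, Cyp11a1, Cyp11b1, Cyp21a1, Cyp24a1 and Cyp27b1). That left 93 of the 37074 gene names on the array, read by 123 probes. The families were unequal in number: 3 genes belong to Cyp1, 49 to Cyp2, 8 to Cyp3, 20 to Cyp4 and 13 to other families.

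Kidney RNA of ICR mice, an outbred strain, was hybridised to 4 one-colour Agilent arrays, 1 array per group. Vancomycin is a glycopeptide antibiotic that can injure the renal tubule. The groups were vancomycin injected at ZT14, saline injected at ZT14, vancomycin injected at ZT2 and saline injected at ZT2, where ZT counts hours from lights on. In all 4 groups the kidney was taken 1 day after the injection, so the hour of collection may differ between the injection times as well. The labels give neither sex nor age, and do not say whether a sample is 1 animal or a pool. Both ZT14 arrays were on 1 slide and both ZT2 arrays on another, so injection time and slide cannot be told apart, nor can treatment and the position on the slide. With 1 array per group no single comparison has a test, and values below are compared with a 2-fold size rule and with the error that the scanner software gives for the spot. That error, on the log2 scale and for a difference between 2 arrays, had a median of 0.20 at ZT14 and 0.21 at ZT2 over the P450 genes detected on all 4 arrays. It covers reading of the spot only, not the spread between animals.

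Cytochrome P450 enzymes are haem proteins that insert an oxygen atom into drugs, steroids, fatty acids, vitamins and bile acid precursors. Those in the endoplasmic reticulum take their electrons from NADPH-cytochrome P450 reductase, and those in mitochondria from ferredoxin. In the kidney they are abundant in the proximal tubule, where Cyp4a enzymes hydroxylate arachidonic acid at its end and Cyp2c and Cyp2j enzymes turn it into epoxides that act on vessels and salt transport.

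Signals are given as log2 values relative to the 75th percentile of their own array, and a gene is read by the brightest of its probes. A probe counted as detected on an array when the scanner software marked it well above background. Of the 93 genes, 55 were detected on all 4 arrays, 12 on 1 to 3 arrays and 26 on none. The genes not detected anywhere included several known from liver, namely Cyp1a2, Cyp2c50, Cyp2c54, Cyp3a16, Cyp3a41a, Cyp3a44, Cyp7a1 and Cyp8b1, and aromatase, Cyp19a1. Detection differed by family, with 33 of 49 Cyp2 genes, 13 of 20 Cyp4 genes, 2 of 3 Cyp1 genes and 0 of 8 Cyp3 genes detected on all 4 arrays. All 10 proximal tubule markers were detected on every array. Of 16 hepatocyte markers, 10 were detected on every array and 5, Apoa1, Ahsg, Serpina3k, Cps1 and Mup20, on none. The share of spots well above background lay between 60.6% and 64.7%, and 0 spots were saturated. The vancomycin ZT2 array stood apart in its spike-in controls, whose slope was 0.877 and which the scanner software marked as out of range, against 0.935 to 1.004 on the other 3 arrays.

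Several P450 genes had high signals that hardly differed between treatments. Cyp2e1, which oxidises ethanol and other small molecules, measured 7.61 on the vancomycin ZT14 array, 7.42 on saline ZT14, 7.30 on vancomycin ZT2 and 7.18 on saline ZT2. The Cyp4b1 signal was 7.11 with vancomycin and 6.96 with saline at ZT14, and 7.17 with vancomycin and 6.85 with saline at ZT2. For Cyp2j5, a kidney arachidonic acid epoxygenase, the 2 vancomycin arrays read 6.08 at ZT14 and 5.87 at ZT2, against 5.92 and 5.75 on the saline arrays in the same order. The vancomycin minus saline differences of these 3 genes were between 0.12 and 0.33, at or near the scanner error of a difference.

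**Figure D1:**
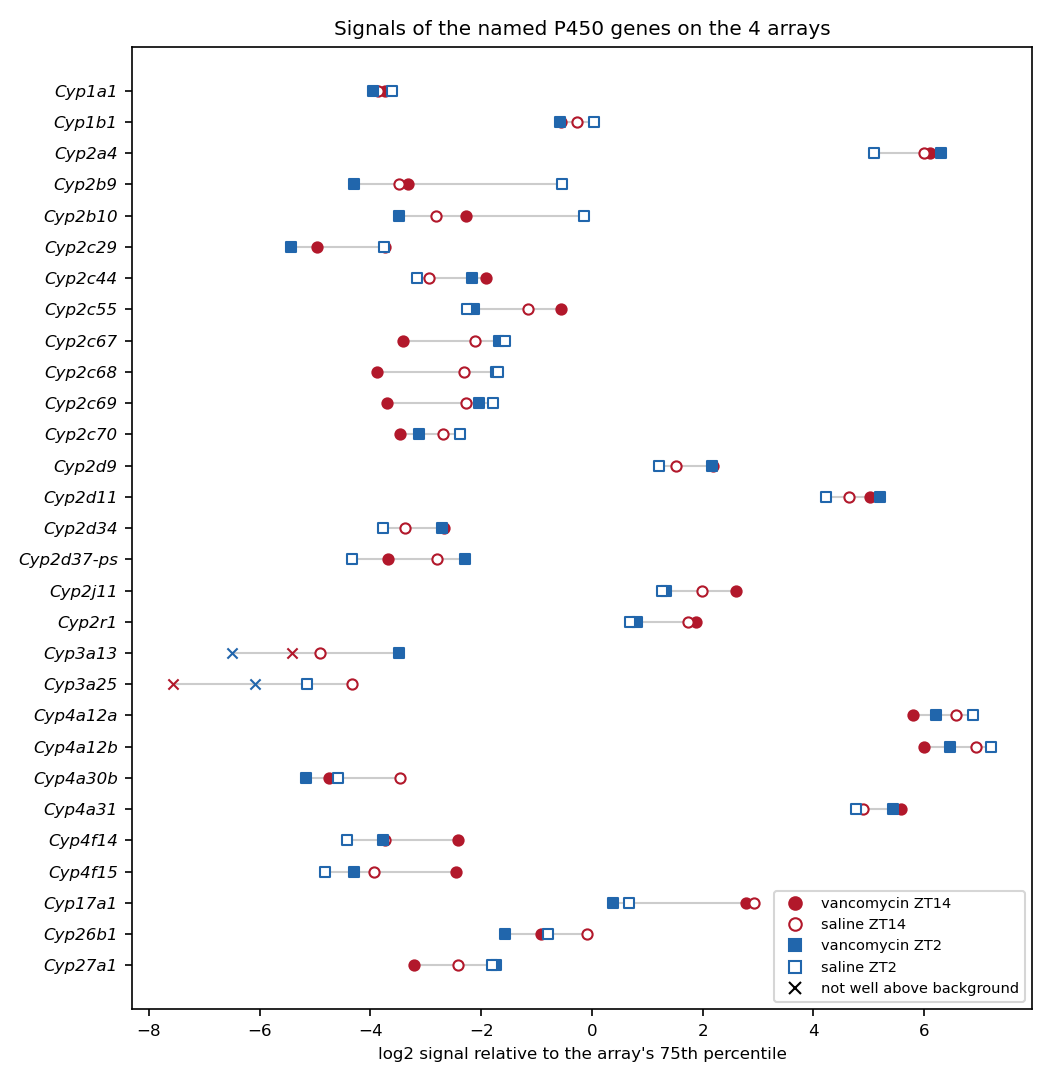
Log2 signal relative to the 75th percentile of the array (x axis) for the P450 genes named in the text (rows), on the 4 arrays: filled symbols are vancomycin, open symbols saline, circles ZT14 and squares ZT2, with a cross where the probe was not well above background. Symbols compare within a row only, since rows are different probes. Cyp2b9 and Cyp2b10 stand apart on the saline ZT2 array, and Cyp17a1 splits by injection time.

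With vancomycin at ZT14, 59 P450 genes could be compared on both arrays. Of these, 3 were at least 2-fold higher and 5 at least 2-fold lower than with saline, where 1.21% of all 22270 genes compared were 2-fold higher and 2.34% were 2-fold lower. Their median difference was 0.06, against 0.02 for all genes. With vancomycin at ZT2, 56 could be compared, 3 of them 2-fold higher and 3 of them 2-fold lower, where 1.4% of all 21246 genes were 2-fold higher and 3.11% were 2-fold lower. The median was then 0.10, against 0.00 for all genes. With normexp background correction, 0 P450 genes were 2-fold higher and 0 were 2-fold lower at ZT14, where 0.45% of all genes were 2-fold higher and 1.07% lower. No P450 gene, the 4 Cyp2c genes below included, kept its place past 2-fold there. The split at ZT2 moved with the scaling: centred on each array's median, quantile normalised or read from the authors' values, 5 genes were 2-fold higher and 3 lower. In the direction of the difference, 22 of the 55 genes detected throughout were higher with vancomycin at both times, 16 were lower at both times and the rest were opposite. Of all 20761 such genes, 6211 were higher and 5672 lower at both times. Over those 55 genes the differences at ZT14 and ZT2 correlated with Pearson's r = 0.22 and Spearman's rho = 0.46, a description across genes that share the same 4 arrays and array positions. Across all 20761 genes these were 0.27 and 0.22.

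A limma model with treatment and injection time as terms, 4 arrays and 1 residual degree of freedom, tested 67 P450 genes among 24640 genes. None passed an adjusted p of 0.05 for vancomycin, the percentage over all genes being 0%, and the smallest adjusted p of a P450 gene was 0.52. At an unadjusted p under 0.05, 9 P450 genes were higher and 7 lower with vancomycin, where 3.21% of all genes were higher and 5.34% lower. Differences below are therefore sizes, not calls.

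**Figure D2:**
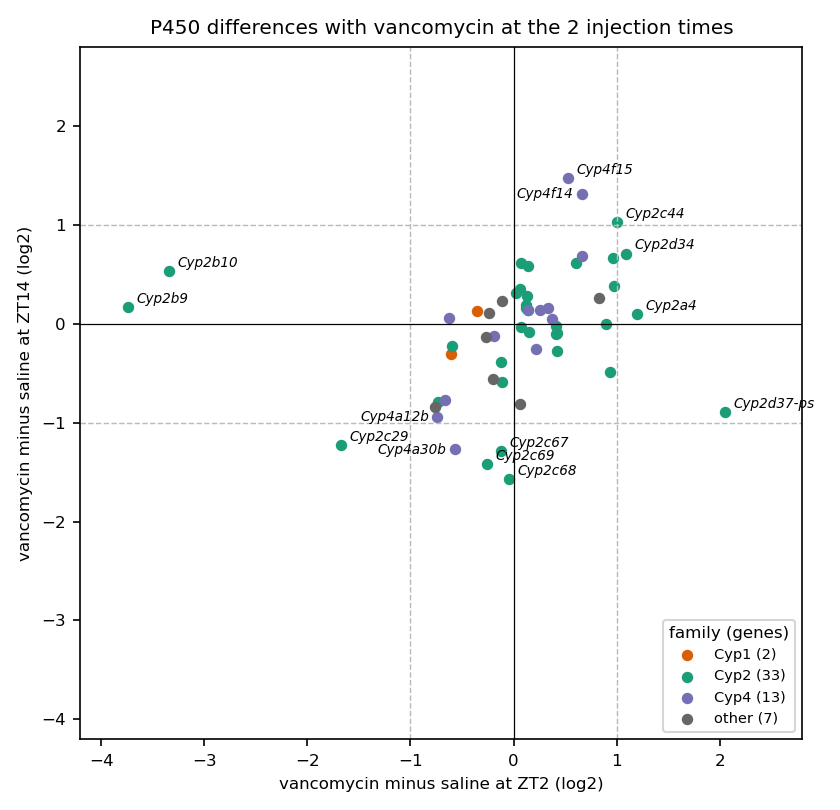
Vancomycin minus saline difference (log2) at ZT14 (y axis) against that at ZT2 (x axis) for the 55 P450 genes detected on all 4 arrays, coloured by family, with dashed lines at 2-fold. Cyp2c29 is the one gene in the lower left corner beyond both lines. Cyp2b9 and Cyp2b10 lie far left at ZT2 and above 0 at ZT14, at 0.17 and 0.53.

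Among the Cyp1 genes, which the aryl hydrocarbon receptor controls, differences were small. The Cyp1a1 signal was -3.74 with vancomycin and -3.87 with saline at ZT14, and -3.95 with vancomycin and -3.61 with saline at ZT2. Cyp1b1, a steroid and retinoid hydroxylase of stromal cells, read -0.56 on the vancomycin and -0.26 on the saline array at ZT14, and -0.57 on the vancomycin and 0.04 on the saline array at ZT2. Its 2 vancomycin values lay below both saline values, by 0.31 at ZT14 and 0.61 at ZT2. For Cyp1a1 the groups overlapped. Of the receptor's 6 listed targets outside the P450 genes, 5 were detected, with differences of -0.26 to 0.34 at ZT14 and, in both directions, of -0.52 to 0.93 at ZT2.

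The Cyp2c genes held the most 2-fold differences at ZT14. These are arachidonic acid epoxygenases and drug hydroxylases on chromosome 19, in a cluster from which Cyp2c44 lies apart. Of the 16 on the array, 8 were detected on all 4 arrays. At ZT14, 4 of 9 compared were 2-fold lower with vancomycin and 1 was 2-fold higher, with a median of -0.79. At ZT2, 1 of 8 was 2-fold lower and none was higher, with a median of -0.12. The ZT14 median was below 0 under every alternative processing run, from -1.01 to -0.41, and the ZT2 median ran from -0.12 to 0.17.

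Because Cyp2c genes are close copies, the letters that their probes read bear on how separate their values are. Below are 30 bases from each of the probes of Cyp2c67, Cyp2c68 and Cyp2c69, which moved alike, and of Cyp2c29 and Cyp2c44, which moved apart. They come from the array files, whose coordinates are on mm9, in the orientation of the probe, and capitals mark the 2 positions at which the Cyp2c67 and Cyp2c68 stretches differ.
Cyp2c67 (chr19:39683458-39683487, minus strand): acAcagtcccagAaattccatctatattcc
Cyp2c68 (chr19:39763450-39763479, minus strand): acCcagtcccagGaattccatctatattcc
Cyp2c69 (chr19:39917334-39917363, minus strand): aagatgaggaaagcttctgctatgctgttt
Cyp2c29 (chr19:39403642-39403671, plus strand): gagtttcccaacccagagatgtttgaccct
Cyp2c44 (chr19:44079565-44079594, minus strand): ccacacacattttcctattctcacgtaaaa

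The whole probes of Cyp2c67 and Cyp2c68 were 93.2% identical over 59 bases, with 4 mismatches, so their signals may come in part from the same transcripts and are uncertain as 2 values. The Cyp2c69 probe reads another stretch, 39.0% identical to that of Cyp2c68 over 41 bases. Among all 4278 pairs of probes used for P450 genes, 2 pairs were at least 80% identical.

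Cyp2c29, which makes epoxides of arachidonic acid and is inducible in mouse liver, was the one P450 gene at least 2-fold lower with vancomycin at both times. Its signal was -4.96 with vancomycin against -3.73 with saline at ZT14, and -5.44 with vancomycin against -3.76 with saline at ZT2. Both vancomycin arrays were below both saline arrays, by 2.35-fold at ZT14 and 3.19-fold at ZT2. Of all genes detected throughout, 0.178% were 2-fold higher and 0.848% were 2-fold lower at both times. The limma estimate for Cyp2c29 was -1.45 ± 0.19 (SE, 4 arrays, adjusted p = 0.52). This is a dim probe: with normexp background correction the differences were -0.41 at ZT14 and -0.34 at ZT2.

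Cyp2c44, a renal epoxygenase that RefSeq now names Cyp2c23, ran the other way. It read -1.91 on the vancomycin and -2.94 on the saline array at ZT14, and -2.16 on the vancomycin and -3.15 on the saline array at ZT2. Both vancomycin values were above both saline values, by 1.03 at ZT14 and 1.00, just under the size rule, at ZT2. Its limma estimate was 1.01 ± 0.14 (SE, 4 arrays, adjusted p = 0.52).

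The Cyp2c67, Cyp2c68 and Cyp2c69 signals were low on the vancomycin ZT14 array alone. Cyp2c67 was -3.41 with vancomycin against -2.11 with saline at ZT14, and -1.68 with vancomycin against -1.56 with saline at ZT2. Cyp2c68 was -3.88 with vancomycin against -2.30 with saline at ZT14, and -1.74 with vancomycin against -1.70 with saline at ZT2. For Cyp2c69 the vancomycin and saline arrays gave -3.70 and -2.27 at ZT14, and -2.03 and -1.78 at ZT2. The vancomycin ZT14 value was thus the lowest of the 4 for each gene, 2.45-fold to 2.97-fold below saline, while the ZT2 pairs differed by 0.04 to 0.26. Whether the difference at ZT14 differed from that at ZT2 was not tested. Cyp2c70, which makes muricholic acids in mouse liver, differed alike at the 2 times: it was -3.47 with vancomycin against -2.68 with saline at ZT14, and -3.12 with vancomycin against -2.39 with saline at ZT2.

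The 250 bases upstream of the starts of Cyp2c67 and Cyp2c69 were 93.0% identical over 200 bases at the best ungapped offset, those of Cyp2c67 and Cyp2c68 73.3% over 202 bases, and those of Cyp2c68 and Cyp2c69 66.1% over 248 bases, in RefSeq sequence of build GRCm38.p6.

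Since many Cyp2c genes are known from liver, hepatocyte markers were set beside them. Of 16 markers, 10 were detected on every array and 5 on none, and the list summed to 438 on vancomycin ZT14, 405 on saline ZT14, 257 on vancomycin ZT2 and 250 on saline ZT2, in multiples of the array's 75th percentile. Nearly all of that sum was the bile acid transporter gene Slc10a1, whose log2 signal was 8.74, 8.61, 7.96 and 7.91 in the same order. Over the list the median difference with vancomycin was -0.29 at ZT14 and 0.03 at ZT2. Of 10 compared at each time, 0 were 2-fold higher and 3 were 2-fold lower at ZT14, and 1 was higher and 1 lower at ZT2. Serpina1a differed by -1.42 at ZT14 and -0.21 at ZT2, and Serpina1b by -1.40 and 0.01 in the same order. The albumin gene Alb differed with vancomycin by -0.12 at ZT14 and 1.75 at ZT2. The organic anion transporter gene Slco1b2, also on this list, was lower with vancomycin by -3.07 at ZT14 and -2.55 at ZT2, the lowest value on the list at each time among those compared on both arrays. It was picked out after its values were seen, and a part of liver cells in these values was not tested.

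Cyp2b9 and Cyp2b10 showed the largest differences of any P450 gene, at ZT2. Both code for drug and steroid hydroxylases, and Cyp2b10 is the standard target of the constitutive androstane receptor in mouse liver. Cyp2b9 read -3.32 on the vancomycin and -3.49 on the saline array at ZT14, and -4.29 on the vancomycin and -0.54 on the saline array at ZT2. Cyp2b10 read -2.28 on the vancomycin and -2.81 on the saline array at ZT14, and -3.49 on the vancomycin and -0.15 on the saline array at ZT2. The saline ZT2 array was the highest for both, 13.4-fold above vancomycin for Cyp2b9 and 10.1-fold for Cyp2b10, whereas the ZT14 pair differed by 0.17 and 0.53 in the other direction. A second Cyp2b10 probe was detected on the saline ZT2 array alone. The receptor's own gene, Nr1i3, measured -2.12 on vancomycin ZT14, -2.31 on saline ZT14 and -5.24 on saline ZT2, and was not well above background on vancomycin ZT2. Nr1i3 was thus higher at ZT14 than at ZT2 in both treatments, by 2.93 in saline kidneys. In vancomycin kidneys the difference was about 3.36, with the undetected value set to the dimmest detected signal of its array. Cyp2b10 differed between the same times by -2.66 in saline and 1.21 in vancomycin kidneys. The part of the receptor in the Cyp2b values was not tested.

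The 2 genes were read by unlike probes, shown here by their first 30 bases on mm9. The whole probes were 37.2% identical over 43 bases at the best offset.
Cyp2b9 (chr7:26995607-26995636, plus strand): taaggtctgatttctatgtctacagacttg
Cyp2b10 (chr7:26711522-26711551, plus strand): cacttatcagctctccatgatctgggatct

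Smooth muscle and stroma markers and adipocyte markers, each list taken as a sum, were also highest on the saline ZT2 array. The 6 smooth muscle and stroma markers, all detected on every array, had a summed signal, in multiples of the array's 75th percentile, of 38.6 on vancomycin ZT14, 45.5 on saline ZT14, 30.8 on vancomycin ZT2 and 81.9 on saline ZT2. In the same order the 8 adipocyte markers summed to 10.6, 9.12, 19.4 and 42.4. The defining fat cell markers Adipoq and Plin1 were not well above background on the 2 ZT14 arrays, and Ucp1 was detected on the vancomycin ZT2 array alone. The part of these cells in the Cyp2b values was not tested, and in whole tissue more cells of a type cannot be told apart from more RNA per cell. Cyp2f2, an enzyme of lung club cells, was low at ZT14 and high on both ZT2 arrays: it was not well above background on vancomycin ZT14, and measured -5.20 on saline ZT14, -3.57 on vancomycin ZT2 and -3.19 on saline ZT2.

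**Figure D3:**
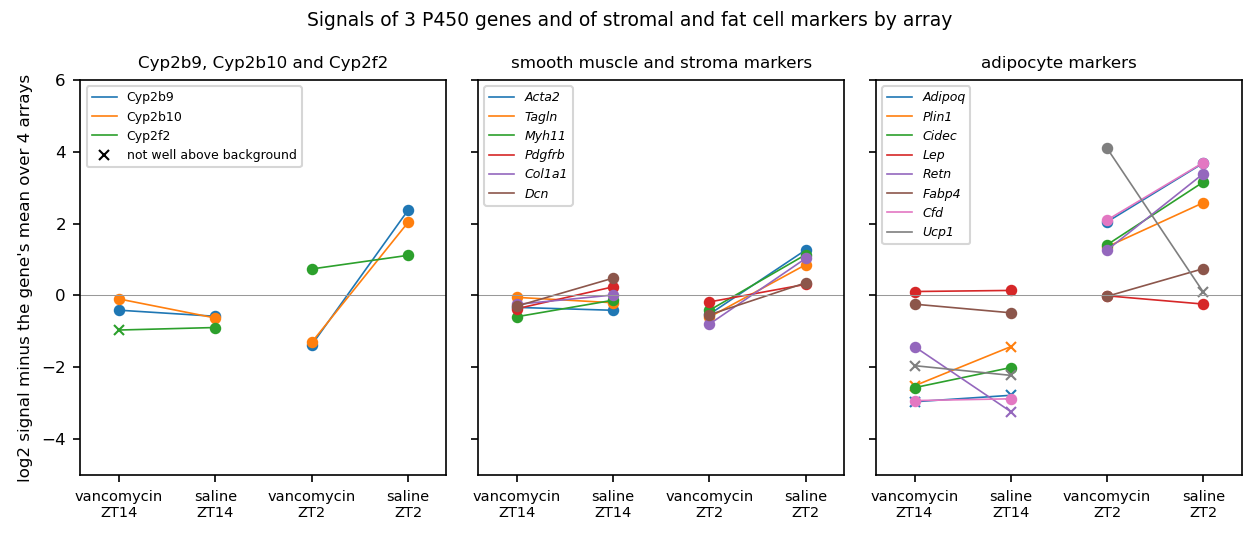
Log2 signal minus the gene's mean over the 4 arrays (y axis) by array (x axis) for Cyp2b9, Cyp2b10 and Cyp2f2 (left), the 6 smooth muscle and stroma markers (middle) and the 8 adipocyte markers (right), with lines joining vancomycin to saline of the same injection time and crosses where a probe was not well above background. Cyp2b9, Cyp2b10 and all 6 stromal markers are higher on the saline than on the vancomycin array at ZT2, and 5 adipocyte markers are 2-fold lower with vancomycin there.

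The Cyp2d and Cyp2a genes were higher with vancomycin at ZT2. Cyp2d enzymes hydroxylate steroids and basic drugs, and Cyp2a4 and Cyp2a5 hydroxylate testosterone and coumarin. All 9 Cyp2d genes compared at ZT2 were above saline, by 0.07 to 2.05 with a median of 0.61, and all 3 Cyp2a genes by 0.90 to 1.20 with a median of 0.94, where 10767 of all 21246 genes were above 0. Both ZT2 arrays stood apart in other ways: the saline one in its stroma and adipocyte markers, with the sums given above, and the vancomycin one in its spike-in slope. The part of these in the Cyp2d and Cyp2a values was not tested. At ZT14 the 9 Cyp2d genes split into 4 higher and 5 lower with a median of -0.02, and the Cyp2a median was -0.00. All 9 Cyp2d and 3 Cyp2a genes were also higher at ZT2 under median centring, quantile normalisation, the authors' values and normexp correction, with a range of medians over the alternatives of 0.52 to 0.70 for Cyp2d and 0.89 to 0.98 for Cyp2a. At ZT14 the sign of the Cyp2d median turned between the alternatives, which ran from -0.03 to 0.38.

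Cyp2a4 read 6.11 on the vancomycin and 6.0 on the saline array at ZT14, and 6.30 on the vancomycin and 5.10 on the saline array at ZT2. Its neighbour Cyp2a5 read 5.76 on the vancomycin and 5.77 on the saline array at ZT14, and 5.72 on the vancomycin and 4.82 on the saline array at ZT2. In both genes the saline ZT2 array was the low one and the other 3 lay close together. Cyp2d11 was 5.03 with vancomycin against 4.65 with saline at ZT14, and 5.20 with vancomycin against 4.23 with saline at ZT2. Cyp2d9, a male-specific steroid hydroxylase in mouse liver, was 2.19 with vancomycin against 1.52 with saline at ZT14, and 2.17 with vancomycin against 1.21 with saline at ZT2. Cyp2d34 was -2.67 with vancomycin against -3.37 with saline at ZT14, and -2.70 with vancomycin against -3.78 with saline at ZT2. For Cyp2d11, Cyp2d9 and Cyp2d34 both vancomycin arrays were above both saline arrays. The limma estimates were 0.81 ± 0.16 for Cyp2d9 and 0.90 ± 0.18 for Cyp2d34 (SE, 4 arrays, adjusted p = 0.52 for each). Y-linked transcripts were detected on all 4 arrays and Xist on none.

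The pseudogene Cyp2d37-ps went opposite ways at the 2 times. It read -3.69 on the vancomycin and -2.79 on the saline array at ZT14, and -2.29 on the vancomycin and -4.34 on the saline array at ZT2. It was thus highest on the vancomycin ZT2 array. That array also had the highest adrenal cortex markers, of which 7 of 8 were detected there, with a summed signal of 5.96, against 1.59 on vancomycin ZT14, 1.14 on saline ZT14 and 1.04 on saline ZT2, and their part in the Cyp2d37-ps value was not tested. Cyp2d13 had 2 detected probes, which gave -0.02 and 1.21 at ZT14 and 0.41 and 0.69 at ZT2. Over the 12 P450 genes with several probes compared at ZT14, signs differed between probes in 5, and none had 1 probe at least 2-fold higher and another at least 2-fold lower.

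Of the 6 Cyp2j genes, epoxygenases of heart and kidney, none differed 2-fold with vancomycin, and their medians were 0.23 at ZT14 and 0.04 at ZT2.

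Cyp3a genes, the main drug-metabolising P450 enzymes of liver and gut, were at the edge of detection. Of the 8 on the array, 0 were detected on all 4 arrays and 3 on none. Cyp3a13 was detected on saline ZT14 at -4.91 and on vancomycin ZT2 at -3.49, and not on vancomycin ZT14 or saline ZT2. For a fold, an undetected value was set to the dimmest detected signal of its array or the probe's own, whichever was higher. On that reading Cyp3a13 was 4.64-fold higher with vancomycin at ZT2 and 1.42-fold lower with vancomycin at ZT14. On vancomycin ZT14 its probe read above the dimmest detected signal without being detected, so such folds are approximate and not strict bounds. Cyp3a25 was detected on the 2 saline arrays alone, at -4.34 at ZT14 and -5.14 at ZT2. On the same reading it was 2.38-fold lower with vancomycin at ZT14 and 1.26-fold lower at ZT2. Its probe shares 94.2% of 52 bases with that of Cyp3a57, which was detected on saline ZT14 alone, so these 2 values are uncertain as separate ones. Capitals mark the 2 differences within the stretches shown, again from the array files on mm9.
Cyp3a25 (chr5:146789186-146789215, minus strand): gtgtcaagagataaacccagaactggaTcA
Cyp3a57 (chr5:146151349-146151378, plus strand): gtgtcaagagataaacccagaactggaCcG
The pregnane X receptor gene Nr1i2, which controls Cyp3a genes in liver, was detected on 3 arrays. It measured -5.10 with vancomycin and -4.66 with saline at ZT2 and -4.52 with saline at ZT14, and was not well above background with vancomycin at ZT14.

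In the Cyp4 family, from which Cyp4a10 and Cyp4a14 were set aside, most of the Cyp4a genes compared were lower with vancomycin. They include the close copies Cyp4a12a and Cyp4a12b. The Cyp4f genes went both ways. Of 4 Cyp4a genes compared, 3 were lower with vancomycin at both times, with medians of -0.86 at ZT14 and -0.61 at ZT2, and Cyp4a31 was higher at both. The Cyp4a median was below 0 under every alternative, from -0.94 to -0.60 at ZT14 and from -0.65 to -0.35 at ZT2. Of 7 Cyp4f genes compared at ZT14, 5 were higher and 2 lower, with a median of 0.14 and 2 at least 2-fold higher. Of 6 at ZT2, 4 were higher and 2 lower, with a median of 0.18 and none at 2-fold. Both medians were within the scanner error of a single difference.

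Cyp4a12a and Cyp4a12b are the androgen-dependent fatty acid hydroxylases that make most of the kidney's hydroxyeicosatetraenoic acid in male mice. Cyp4a12a measured 5.80 with vancomycin against 6.57 with saline at ZT14, and 6.22 with vancomycin against 6.88 with saline at ZT2. Cyp4a12b measured 5.99 with vancomycin against 6.94 with saline at ZT14, and 6.46 with vancomycin against 7.21 with saline at ZT2. Both vancomycin arrays were below both saline arrays for each gene, by 1.58-fold to 1.92-fold. The limma estimates were -0.72 ± 0.14 for Cyp4a12a and -0.84 ± 0.15 for Cyp4a12b (SE, 4 arrays, adjusted p = 0.52 for each). The 2 genes are close copies, and their probes read different stretches, 52.5% identical over 40 bases at the best offset. Whether each probe also reads the other gene's transcript was not tested, so the 2 values may not be separate. Each probe is shown by its first 30 bases on mm9.
Cyp4a12a (chr4:115005258-115005287, plus strand): atgcatatctgaaagagccaattttcaacc
Cyp4a12b (chr4:115111580-115111609, plus strand): cctttcagcttacatttaagagtcttgcca

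Cyp4a31 had 5.58 with vancomycin against 4.89 with saline at ZT14, and 5.43 with vancomycin against 4.77 with saline at ZT2, a limma estimate of 0.68 ± 0.14 (SE, 4 arrays, adjusted p = 0.52). Its 2 vancomycin arrays lay above both saline arrays. A dimmer second probe of Cyp4a31 gave 1.11 at ZT14 and 0.64 at ZT2. Cyp4a30b was -4.74 with vancomycin against -3.46 with saline at ZT14, and -5.16 with vancomycin against -4.59 with saline at ZT2. Ppara, the receptor that induces Cyp4a genes, differed by -0.34 at ZT14 and 0.26 at ZT2.

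Cyp4f14 and Cyp4f15, leukotriene and fatty acid hydroxylases, had the largest increases at ZT14. Cyp4f14 was at -2.42 with vancomycin against -3.73 with saline at ZT14, and at -3.77 with vancomycin against -4.42 with saline at ZT2. Cyp4f15 was at -2.46 with vancomycin against -3.93 with saline at ZT14, and at -4.29 with vancomycin against -4.82 with saline at ZT2. The vancomycin ZT14 array was the highest for both, 2.47-fold above saline for Cyp4f14 and 2.77-fold for Cyp4f15, and at ZT2 the genes were 1.58-fold and 1.44-fold above saline. With normexp background correction the ZT14 differences were 0.80 and 0.86.

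**Figure D4:**
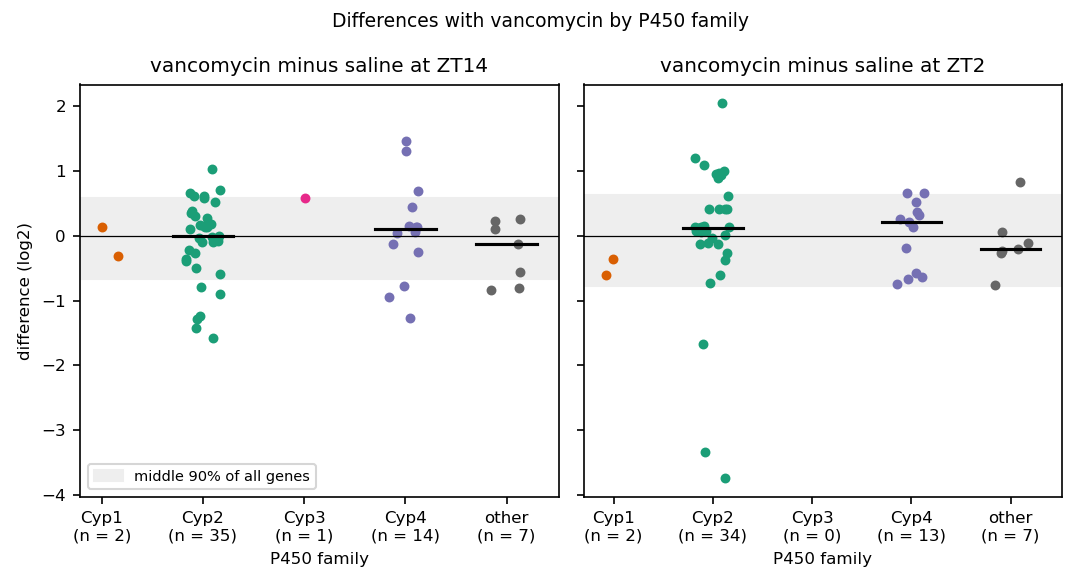
Vancomycin minus saline difference (log2, y axis) of each P450 gene detected on both arrays, by family (x axis), at ZT14 (left) and ZT2 (right); black bars are medians for families of more than 2 genes, and the grey band holds the middle 90% of all genes. The Cyp2 and Cyp4 medians lie within 0.22 of 0, with single genes well outside the band on both sides.

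By whole family, the medians of Cyp2 and Cyp4 were both close to 0. The Cyp2 median was -0.00 at ZT14 and 0.12 at ZT2, and the Cyp4 median 0.10 at ZT14 and 0.22 at ZT2. Of 33 Cyp2 genes detected throughout, vancomycin arrays were above saline at both times in 14 and below in 8, and of 13 Cyp4 genes in 7 and 4, to be read beside the 6211 and 5672 of all 20761 genes. At ZT14 the sign of the Cyp2 median turned with the scaling, with 0.02 under median centring. With 1 or 2 genes detected, Cyp1 and Cyp3 have no median worth setting beside these.

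Among the remaining families, Cyp26b1, which breaks down retinoic acid, was lower with vancomycin at both times. It was -0.91 with vancomycin against -0.08 with saline at ZT14, and -1.56 with vancomycin against -0.80 with saline at ZT2, a limma estimate of -0.80 ± 0.14 (SE, 4 arrays, adjusted p = 0.52). Both vancomycin arrays were below both saline arrays, the nearest values being -0.91 and -0.80.

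Injection time, which cannot be told apart from slide or from any difference in the hour of collection, went with larger differences than vancomycin over the whole array. In vancomycin kidneys 7 of 56 P450 genes were at least 2-fold higher at ZT14 than at ZT2 and 5 were at least 2-fold lower, where 8.35% of all genes were 2-fold higher and 2.8% were 2-fold lower. In saline kidneys 6 of 58 were 2-fold higher and 3 were 2-fold lower, where 7.3% of all genes were 2-fold higher and 3.05% were 2-fold lower. At 2-fold in both treatments, 3 of 55 were higher and 0 lower, where 4.82% of all genes were 2-fold higher and 0.906% were 2-fold lower. The 3 were Cyp17a1, Cyp2c55 and Cyp2r1. In limma no P450 gene passed an adjusted p of 0.05, the percentage over all genes being 0%, with 0.087 the lowest reached. Without adjustment, 14 P450 genes were higher and 3 lower at ZT14 at a p under 0.05, where 18% of all genes were higher and 9.27% were lower. Centring on the array median shifted the median of all genes from 0.03 to -0.09 in vancomycin kidneys and from 0.02 to -0.08 in saline kidneys, and the Cyp2 median in vancomycin kidneys turned from 0.04 to -0.07.

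Cyp17a1, the steroid hydroxylase and lyase on the path to androgens, had the largest such difference. It measured 2.79 in vancomycin and 2.92 in saline kidneys at ZT14, and 0.39 in vancomycin and 0.67 in saline kidneys at ZT2. Both ZT14 arrays were above both ZT2 arrays, by 5.28-fold with vancomycin and 4.77-fold with saline, and the limma estimate was 2.33 ± 0.14 (SE, 4 arrays, adjusted p = 0.087). The summed adrenal cortex markers, given above, were highest on vancomycin ZT2, and their part in the Cyp17a1 values was not tested. Its probe, on chromosome 19 and with no single run of coordinates in the array files, begins as follows.
Cyp17a1 (minus strand): cggtggcccccttgctcatcccacacaagg

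Cyp2r1, which hydroxylates vitamin D, had 1.88 in vancomycin and 1.74 in saline kidneys at ZT14, and 0.82 in vancomycin and 0.68 in saline kidneys at ZT2. Cyp2c55, an epoxygenase of colon and kidney, had -0.56 in vancomycin and -1.15 in saline kidneys at ZT14, and -2.12 in vancomycin and -2.26 in saline kidneys at ZT2. In both genes the ZT14 arrays were above the ZT2 arrays, by 1.05 and 1.06 for Cyp2r1 and by 1.56 and 1.11 for Cyp2c55, with vancomycin and with saline in that order. The oxygenase gene Cyp2j11 differed by 1.28 in vancomycin and 0.73 in saline kidneys.

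In the other direction, the mitochondrial sterol hydroxylase Cyp27a1 had -3.22 in vancomycin and -2.41 in saline kidneys at ZT14, and -1.74 in vancomycin and -1.80 in saline kidneys at ZT2. Both ZT14 arrays were lower than both ZT2 arrays, by 1.48 with vancomycin and 0.61 with saline. Cyp4f14 and Cyp4f15 were higher at ZT14 in both treatments, by 1.35 in vancomycin and 0.70 in saline kidneys for Cyp4f14 and by 1.83 and 0.88 for Cyp4f15.

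**Figure D5:**
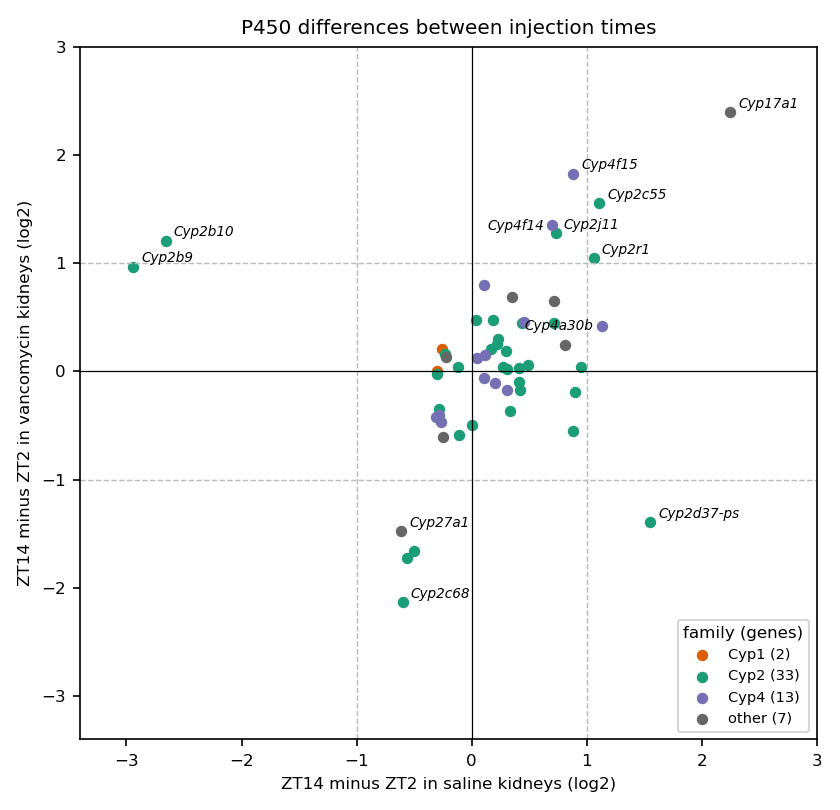
ZT14 minus ZT2 difference (log2) in vancomycin kidneys (y axis) against that in saline kidneys (x axis) for the 55 P450 genes detected on all 4 arrays, coloured by family, with dashed lines at 2-fold. Cyp17a1 lies at 2.40 and 2.25, and Cyp2b9, Cyp2b10 and Cyp2d37-ps are on opposite sides of 0 in the 2 treatments.

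The genes that serve P450 enzymes or control them were examined as 53 listed partners, of which 49 were detected on all 4 arrays. Vancomycin arrays were above saline at both times for 11 and below for 15, 2 and 1 of these at 2-fold, and 0 passed an adjusted p of 0.05 in limma. Of all 20761 genes detected throughout, 6211 were higher and 5672 lower at both times. At 2-fold in both, 0.178% of them were higher and 0.848% lower. The 7 electron donors, among them the reductase Por, differed by -0.22 to 0.27 at ZT14 and by -0.18 to 0.36 at ZT2. The 12 genes of haem synthesis and breakdown had medians of -0.03 at ZT14 and -0.00 at ZT2, with none at 2-fold, and the epoxide hydrolases had none at 2-fold with vancomycin either.

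The partners with the largest mean differences over both times were the clock factors Dbp, Nfil3, Arntl and Nr1d1 and the receptors Rxrg and Nr1i2, while the other 4 of 8 clock factors stayed below 2-fold. Dbp, which activates genes through a D-box, was at 3.20 with vancomycin against 4.93 with saline at ZT14, and at 2.41 with vancomycin against 4.44 with saline at ZT2. Nfil3, which represses through the same element, was at 1.26 with vancomycin against -0.18 with saline at ZT14, and at 0.54 with vancomycin against -0.75 with saline at ZT2. Both vancomycin arrays were below both saline arrays for Dbp and above both for Nfil3. Arntl was higher with vancomycin, by 1.14 at ZT14 and 1.11 at ZT2, and Nr1d1 lower, by -1.42 and -0.69 in the same order. Among receptors, Rxrg differed by -1.58 at ZT14 and 0.06 at ZT2.

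D-box letters were therefore looked for upstream of the P450 genes, together with the other motifs listed for their regulators. Of the 93 genes, 71 had a RefSeq promoter, and the 250 bases before the start were searched on both strands. P450 matches were counted per gene, and the background per promoter. A gene with several promoters would have more chances of a match, so the shares below are not directly comparable. The D-box, TTATGNAA, was in 7 of 71 genes, which is 9.9%, against 3.07% of 32851 promoters. The core of the aryl hydrocarbon receptor element, GCGTG, was in 13, or 18.3%, against 28.16% of all promoters, and lay at position -54 from the start of Cyp1a1. The E-box, CACGTG, was in those of Cyp2j6 and Cyp4v3, or 2.8%, against 6.02%, and the direct repeat bound by PPAR and HNF4 was in 0, against 0.03%. The P450 promoters with a D-box were those of Cyp2a4, Cyp2a5, Cyp2b10, Cyp2b19, Cyp2b23, Cyp4f14 and Cyp27a1. A match describes letters only, and near copies such as Cyp2a4 and Cyp2a5, 98.4% identical over 249 bases, are not separate instances.

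The promoters below show the D-box in capitals in Cyp2a4, Cyp2a5 and Cyp2b10, and Cyp2b9, in which these letters were not found. They are the 250 bases before the start in GRCm38.p6, each on the plus strand. In mouse liver DBP is known to act through such a site in the Cyp2a4 and Cyp2a5 promoters.
Cyp2a4 (chr7:26306942-26307191): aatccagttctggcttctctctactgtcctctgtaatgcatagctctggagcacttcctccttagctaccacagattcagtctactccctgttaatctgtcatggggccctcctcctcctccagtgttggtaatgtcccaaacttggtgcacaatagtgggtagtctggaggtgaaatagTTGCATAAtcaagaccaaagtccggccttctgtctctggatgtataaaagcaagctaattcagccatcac
Cyp2a5 (chr7:26835089-26835338): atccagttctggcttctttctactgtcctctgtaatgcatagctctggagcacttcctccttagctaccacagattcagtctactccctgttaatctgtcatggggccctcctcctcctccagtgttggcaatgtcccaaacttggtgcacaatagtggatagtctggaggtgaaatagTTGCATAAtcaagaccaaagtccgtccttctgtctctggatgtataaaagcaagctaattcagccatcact
Cyp2b10 (chr7:25897408-25897657): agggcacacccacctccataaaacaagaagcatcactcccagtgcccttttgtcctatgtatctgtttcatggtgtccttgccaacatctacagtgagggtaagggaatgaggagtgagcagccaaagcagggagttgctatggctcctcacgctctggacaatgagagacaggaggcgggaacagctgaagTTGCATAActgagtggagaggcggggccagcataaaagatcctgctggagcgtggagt
Cyp2b9 (chr7:26173159-26173408): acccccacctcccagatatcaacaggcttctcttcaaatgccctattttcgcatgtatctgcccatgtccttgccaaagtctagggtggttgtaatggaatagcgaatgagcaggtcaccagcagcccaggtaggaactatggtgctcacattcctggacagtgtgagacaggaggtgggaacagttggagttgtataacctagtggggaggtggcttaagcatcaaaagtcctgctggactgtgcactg

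The 7 genes with these letters had the following values. At ZT14 the vancomycin minus saline difference was 0.10 for Cyp2a4, -0.00 for Cyp2a5, 0.53 for Cyp2b10, 1.31 for Cyp4f14 and -0.81 for Cyp27a1. At ZT2 it was 1.20 for Cyp2a4, 0.90 for Cyp2a5, -3.34 for Cyp2b10, 0.66 for Cyp4f14 and 0.06 for Cyp27a1. Cyp2b19 was detected on the saline ZT14 array alone, and Cyp2b23 on none.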

How the data were processed

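Cy3-labelled RNA was read from 4 Agilent arrays, 1 per group. Per the file headers, the authors deposited Feature Extraction 10.7.1.1 output, in which the processed signal is an intensity with background subtracted, probe coordinates are on mm9 and no scaling between arrays was done, and version 9.5.1.1 is named in the submitters' processing notes. The authors also deposited a linear intensity table, quantile normalised from its values, which served as an alternative. There is no read depth for arrays, and their number limits the precision.

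The log2 processed signal was centred on each array's 75th percentile. A gene took its brightest probe among those well above background on at least 1 array, leaving 24640 of 37074 genes, and a difference was counted where both arrays were above background. The main test was limma 3.58.1 (R 4.3.3) with treatment and injection time, Benjamini-Hochberg adjusted over all genes. Genes named are those past 2-fold at both times, up to 6 each way at each time by size, 2 per family Cyp1 to Cyp4, up to 5 each way by injection time, and up to 6 partners. Others were named for a role, after their values were seen: Cyp2e1, Cyp4b1, Cyp2j5, Cyp2a5, Cyp2f2, Cyp2d13, Cyp3a57, Por, Ppara, Nr1i3, Alb, Serpina1a, Serpina1b, Slc10a1, Slco1b2 and the genes with D-box letters. Members, lists and tests were chosen with earlier results of these data known.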

Additional observations from a re-analysis of the deposited data

Results flagged for a closer look

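Cyp2b10 and Cyp2d37-ps differed with vancomycin in opposite directions at the 2 injection times, each by more than 0.5 on the log2 scale. For Cyp2b10 the vancomycin minus saline difference was 0.53 at ZT14 and -3.34 at ZT2. For Cyp2d37-ps it was -0.89 at ZT14 and 2.05 at ZT2. With 1 array per group the difference between the times was not tested. The saline ZT2 array also carried the highest summed signals of the smooth muscle and stroma list and of the adipocyte list. The vancomycin ZT2 array had the highest summed adrenal cortex signal. The part of these cells in the Cyp2b10 and Cyp2d37-ps values was not tested.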

How the results depend on the processing

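No named P450 gene at 2-fold with the reported processing turned direction under any alternative run. Counts of P450 genes at 2-fold moved by over 1.5 times as follows. With normexp background correction, 0 were higher and 0 lower with vancomycin at ZT14, 1 was higher at ZT2, 4 were higher and 3 lower at ZT14 than at ZT2 in vancomycin kidneys, and 1 was higher in saline kidneys. With 16 added before the log, 3 were lower with vancomycin at ZT14. Keeping undetected probes, 6 were higher and 9 lower at ZT14, 9 higher and 5 lower at ZT2, 11 higher and 11 lower between times in vancomycin kidneys, and 15 higher in saline kidneys. Centring on the array median, quantile normalisation and the authors' values each gave 5 higher with vancomycin at ZT2. The Cyp4 median between times in vancomycin kidneys was -0.07 with undetected probes kept and -0.06 with the mean over a gene's probes. For injection time, limma's adjusted p passed 0.05 for 6 P450 genes with normexp, 5 with 16 added and 3 with only probes detected on all arrays. It passed for 3 without the treatment term and 8 when limma's prior was made robust and let to follow signal, against 0 as reported. Cyp17a1 and Cyp2r1 were called in all 5. Many other genes passed too. Of all 24640 genes, 1939 were called higher at ZT14 and 1063 lower with normexp, and 1370 and 396 with 16 added. Without the treatment term these were 1140 and 192, and with the robust prior 2379 and 1015. With only probes detected on all arrays they were 1302 and 322 of 20772. The cause of these changes was not tested. For vancomycin, 0 passed under every alternative. The injection time term already pairs the 2 arrays of a slide, and without it 0 P450 genes passed for vancomycin. Leaving out 1 array would leave the model no residual degree of freedom. Dim probes such as those of Cyp2c29, Cyp4a30b and the Cyp3a genes limit what their differences show.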
